A study of Mus musculus with 8 samples.

Results

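Cutting a nascent transcript, adding its poly(A) tail and releasing RNA polymerase II are carried out by a large set of proteins, and 51 genes for them were followed here in cultured macrophages derived from bone marrow (BMDMs) with and without Nudt21. The members were the rows of 51 listed symbols among 21080 gene symbols: 6 genes of the cleavage and polyadenylation specificity factor (CPSF), 8 of the cleavage stimulation factor (CSTF), cleavage factor IIm and their scaffold symplekin, counted with Rbbp6, a ubiquitin ligase of the cleavage complex, 5 poly(A) polymerases and poly(A) binding proteins, 6 termination and protein phosphatase 1 (PP1) genes, 11 Integrator subunits, 5 SCAF and CDK genes, 5 subunits of the PAF complex, and 5 genes of RNA polymerase II, Supt5 and the negative elongation factor (NELF). Of these rows 50 stood under the symbol listed and symplekin under its mouse symbol Sympk, and all 51 had enough coverage to be tested. Nudt21 itself and the other subunits of cleavage factor Im were left out of the list by its rule.

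RNA was sequenced from BMDMs of C57BL/6 mice in 4 groups of 2 samples. Every mouse carried LysM-Cre, which is active in myeloid cells. WT mice were sex-matched littermates with LysM-Cre, and Nudt21-cKO mice were Nudt21 fl/fl with LysM-Cre, so that exons of Nudt21 are removed in myeloid cells. BMDMs of each genotype were taken without stimulation (0 h) or after IFNγ overnight followed by LPS for 4 h (IFNγ/LPS 4 h). The labels name the stimulation for the 0 h samples too, and these were taken as untreated from their titles. Each sample pooled the BMDMs of 2 mice, and ages were not given in the sources used here. The titles number the samples WT1, WT2, KO3 and KO4 at both times. Whether equal numbers share a pool of mice was not stated, and the main fit took the 8 samples as independent.

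The deposited value is the mean read coverage per base of a gene, so levels can be compared between genes, but it is not adjusted for depth. A change in where transcripts end can also change this mean. A difference between genotypes therefore need not be one in the number of transcripts, which was not tested. Summed over genes it was 14950347 to 17954882 per sample, and the number of reads behind a value is not known. At 4 h the coverage was held by fewer genes, 14737 to 15947 above 0 against 16362 to 16486 at 0 h, and the median log2 change of all genes on the deposited scale was -1.24 in WT and -1.03 in cKO. Samples were therefore scaled to one median (scaled coverage), and each change below is a change relative to the median gene. Before scaling, the samples' median log2 coverage was 7.23 and 7.22 in WT against 7.27 and 7.38 in cKO at 0 h, and 5.64 and 5.88 in WT against 6.14 and 6.10 in cKO at 4 h. The median log2 change of all genes between genotypes was then 0.09 at 0 h and 0.28 at 4 h. The deletion was visible in every sample: scaled coverage of Nudt21 at 0 h was 465 and 419 in WT but 100 and 101 in cKO, and at 4 h it was 1068 and 953 in WT but 197 and 164 in cKO. All 11 macrophage markers were above 1 in every group. Their summed scaled coverage was 91050 to 91150 in cKO and 101900 to 104500 in WT at 0 h, and 142500 to 149700 in cKO and 175100 to 216200 in WT at 4 h. Neutrophil markers summed to 15500 to 17340 in WT against 17600 to 21620 in cKO at 0 h, and to 35180 to 36860 against 31410 to 36640 at 4 h. Over the samples they ran from Mpo at 106 to 199 up to S100a8 at 4421 to 10110 and S100a9 at 7250 to 20020. Only the surface marker Ly6g was lower, between 0 and 7.43. The other 6 marker lists summed to at most 159. The part of these differences between groups in the results below was not tested, and in bulk RNA fewer cells of a type and less RNA per cell cannot be told apart.

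CPSF reads the AAUAAA poly(A) signal and cuts the transcript, with its endonuclease in Cpsf3. CSTF binds downstream of the cut, and cleavage factor IIm (Pcf11 and Clp1) links cleavage to release of the polymerase. Poly(A) polymerases add the tail that poly(A) binding proteins cover, and Xrn2 degrades the RNA left on the polymerase. Nudt21 encodes the small subunit of cleavage factor Im, which binds UGUA upstream of poly(A) sites and helps to choose among them. Integrator cuts nascent RNA near promoters and at small nuclear RNA genes, NELF and Supt5 hold the polymerase after initiation, CDKs release it, and the PAF complex travels with it.

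Because the deleted factor acts at the ends of transcripts, the annotated 3′ ends of the 10 members that differed between genotypes are shown first. Sequences were read from the GRCm38 genome at GENCODE M21 transcripts, 5′ to 3′ in the sense of the gene, as DNA letters. For 6 of the 10 the hexamer AATAAA, the DNA form of the canonical signal, was found within the last 50 bases, and it stands in capitals in the 30 bases shown for each.
Cstf3 (chr2:104665400-104665429, plus strand): aaaggAATAAAaggacctcaaaaacatgcc
Ssu72 (chr4:155733836-155733865, plus strand): aacctaAATAAAgcaacaggctgtcttatt
Ints7 (chr1:191623659-191623688, plus strand): gacttagaaaacaAATAAAagcaggtcctg
Ints8 (chr4:11199158-11199187, minus strand): gaggttaAATAAAtttccttaccaacaatt
Rtf1 (chr2:119735378-119735407, plus strand): AATAAActctggcattttaataagggatca
Nelfb (chr2:25199712-25199741, minus strand): atgtaAATAAAacggattttgataaatcca

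The remaining 4, Cpsf1, Papolg, Ints2 and Scaf4, had neither AATAAA nor ATTAAA in that window. For these, the 30 bases of the 3′UTR with the most TGTA, the DNA form of the UGUA bound by cleavage factor Im, are given with TGTA in capitals. Where windows tied, the one nearest the end was taken, and no such window was sought in other genes.
Cpsf1 (chr15:76595833-76595862, minus strand): TGTAcacttccctctacccatttTGTAtaa
Papolg (chr11:23862667-23862696, minus strand): TGTATGTAcTGTAagatatcatcttttcaa
Ints2 (chr11:86210814-86210843, minus strand): TGTAaataaaataTGTAaataatattagta
Scaf4 (chr16:90229231-90229260, minus strand): TGTAgaacatgaggTGTAcagatgcTGTAt

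The windows of Papolg and Cpsf1 end 21 and 27 bases before the annotated end, and those of Ints2 and Scaf4 end 133 and 176 bases before it. For Scaf4 this is the end of the transcript chosen, at position 90229055, and the gene's annotation reaches on to 90225680 on the minus strand, so its window and missing signal describe an internal annotated end. Over all members with an annotated 3′UTR, 51 of 51, the median length was 549 bases against 934 bases for the 13510 tested genes with one. AATAAA was in the last 50 bases of 33 members (64.7%), against 63.9% of those genes. Neither AATAAA nor ATTAAA was there in 16 members (31.4%), against 21.6% of those genes. TGTA was in the last 100 bases of 23 members (45.1%), against 53.5% of those genes, and in 9 of the 10 members shown, all but Ints2. A match is a description of the annotated letters, searched on the transcript strand alone, and where these RNAs end in the samples was not analysed here.

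Without stimulation, scaled coverage of the members in WT ran from 61.4 for Ints5 to 9863 for Pabpc1. Their median was 364, against 98.1 for all 16284 genes tested. The 7 members above 1000 were Pabpc1, the main cytoplasmic poly(A) binding protein, Ppp1ca, a catalytic subunit of PP1 (4198 ± 391, SD, n = 2), Ssu72, a phosphatase of the polymerase tail (1519 ± 170), Cdk9, the kinase of P-TEFb (1447 ± 257), Papola, the main poly(A) polymerase (1397 ± 20.4), Polr2a, the large subunit of the polymerase (1120 ± 165), and Supt5 (1077 ± 69.2). From Ssu72 to Papola, and from Polr2a to Supt5, neighbouring means in this order differed by less than the larger of their SDs. Of the rest, 34 lay between 200 and 1000 and 10 under 200, among them Papolg, a further canonical poly(A) polymerase (111 ± 6.86), and the Integrator subunits Ints2 (77.8 ± 1.72) and Ints5 (61.4 ± 17.3). Between replicates the members' coverage differed by a median of 0.12 on the log2 scale in WT 0 h, 0.03 in cKO 0 h, 0.15 in WT 4 h and 0.07 in cKO 4 h.

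**Figure D1:**
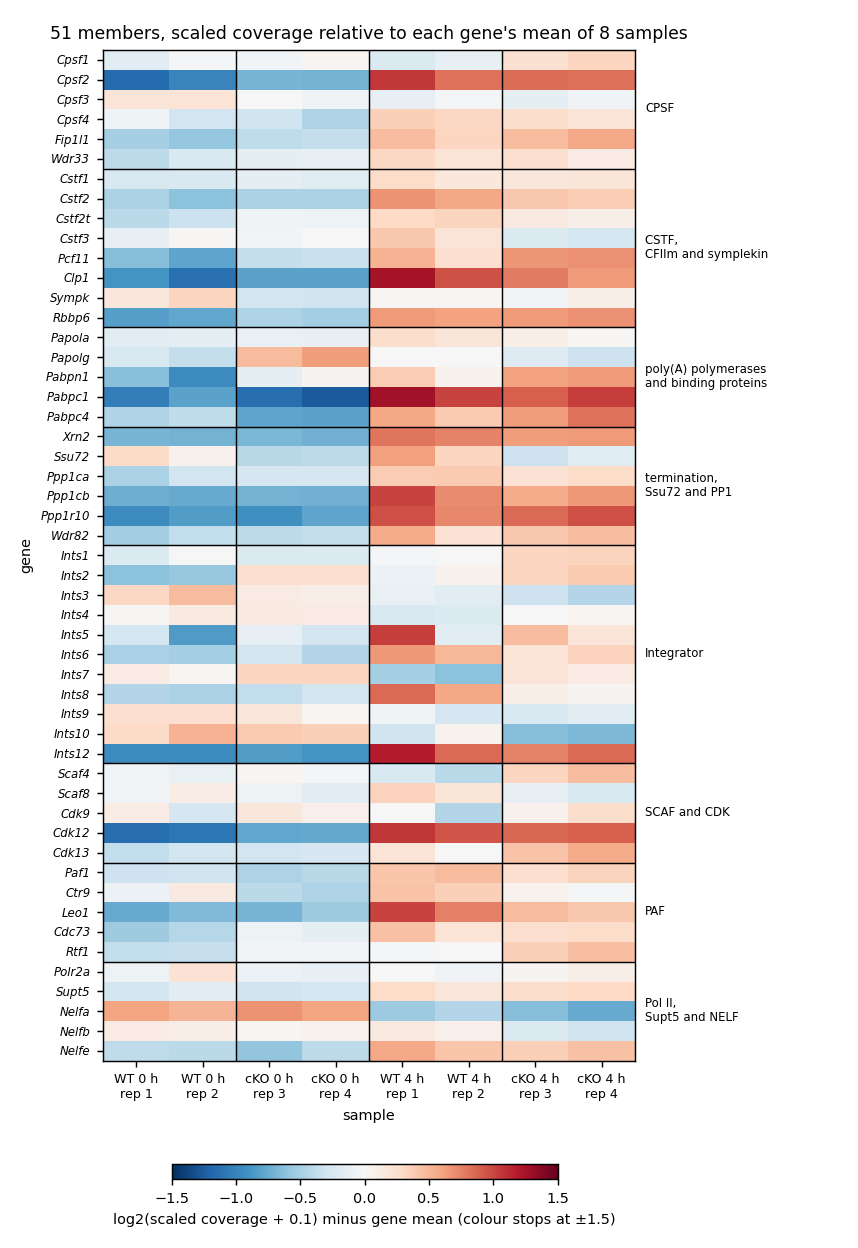
Scaled coverage of the 51 members (rows, by role) in the 8 samples (columns), as the difference of log2(scaled coverage + 0.1) from the gene's own mean over the samples. Red is above and blue below that mean, with the colour ending at ±1.5. The time columns separate most rows, and some rows, such as Ints2 and Ssu72, separate by genotype at both times.

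The first comparison asked which of these genes differ between cKO and WT without stimulation. Papolg and Ints2 were higher in cKO, each by about 1.8-fold, and no member was called lower. Papolg, which encodes a nuclear poly(A) polymerase close to Papola, had scaled coverage of 115 and 106 in WT and 189 and 209 in cKO. Both cKO samples were above both WT samples, and the log2 fold change was 0.84 ± 0.11 (SE, n = 2 against 2; adjusted p = 0.0227, limma with Benjamini-Hochberg adjustment over 16284 genes). Ints2, a scaffold subunit of Integrator, was at 76.5 and 79.0 in WT and at 138 and 139 in cKO. The groups did not overlap here either, and the change was 0.83 ± 0.09 (adjusted p = 0.0186). Papola, in contrast, was at 1382 and 1411 in WT and 1442 and 1424 in cKO (0.04 ± 0.09, adjusted p = 0.876).

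Of the 51 members 2 were thus called higher and 0 lower by limma, while of all genes tested 2.69% were called higher and 2.11% lower. At an unadjusted p under 0.05 the members gave 11 higher and 5 lower, against 11.1% and 10.6% of all genes. Their median log2 fold change was 0.07, against 0 for all genes, and 34 of 51 (66.7%) were above 0 against 49.7% of all genes. With the unadjusted rule of a fold above 1.5 and p under 0.05 there were 3 higher and 0 lower, against 6.19% and 6.07% of all genes. Neither call was made when samples were scaled to equal total coverage (adjusted p = 0.0613 for Papolg and 0.0682 for Ints2) or when the 4 samples at 0 h were fitted alone (0.0866 and 0.0608). An exact two-sided permutation test of 2 samples against 2 cannot go below p = 0.333. Groups that do not overlap, here and below, therefore add no support to a call. The share of all genes with such groups was not counted.

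The other roles changed less at 0 h. Among CPSF genes the range was from -0.23 for Cpsf3 to 0.37 for Cpsf2, the endonuclease's inactive partner (adjusted p = 0.233 and 0.162). In the CSTF and cleavage factor IIm group Sympk was lowest, at 852 and 950 in WT and 621 and 619 in cKO (-0.54 ± 0.10, adjusted p = 0.0542). Pcf11 was highest in that group, at 345 and 309 in WT and 418 and 426 in cKO (0.37 ± 0.13, adjusted p = 0.179). For both genes the samples of WT and cKO did not overlap. Sympk was called lower under quantile normalization and under scaling on genes of the members' level (adjusted p = 0.0206 and 0.0391), but not on the deposited scale (0.13).

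Pabpc4, another cytoplasmic poly(A) binding protein, had the lowest value of its group (-0.38, adjusted p = 0.147), and Pabpn1, the nuclear one, was at 765 and 609 in WT and 1067 and 1211 in cKO (0.74 ± 0.17, adjusted p = 0.0883). Of the termination genes Ssu72 was lowest (-0.58 ± 0.15, adjusted p = 0.105). Under quantile normalization Ssu72 and Pabpc4 were called lower (-0.71 and -0.49, adjusted p = 0.0348 and 0.0370), and Cdk12 was called higher (0.37, 0.0454). Among termination genes Ppp1ca was highest (0.12, adjusted p = 0.564). Elsewhere the lowest and highest values were -0.28 for Ints3 among the other Integrator subunits, -0.16 for Scaf8 and 0.34 for Cdk12 among SCAF and CDK genes, -0.46 for Ctr9 and 0.37 for Cdc73 in the PAF complex, and -0.17 for Polr2a and 0.09 for Nelfa among polymerase and NELF genes. None of these passed the test with samples scaled to one median (adjusted p from 0.0951 for Ctr9 to 0.702 for Nelfa).

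**Figure D2:**
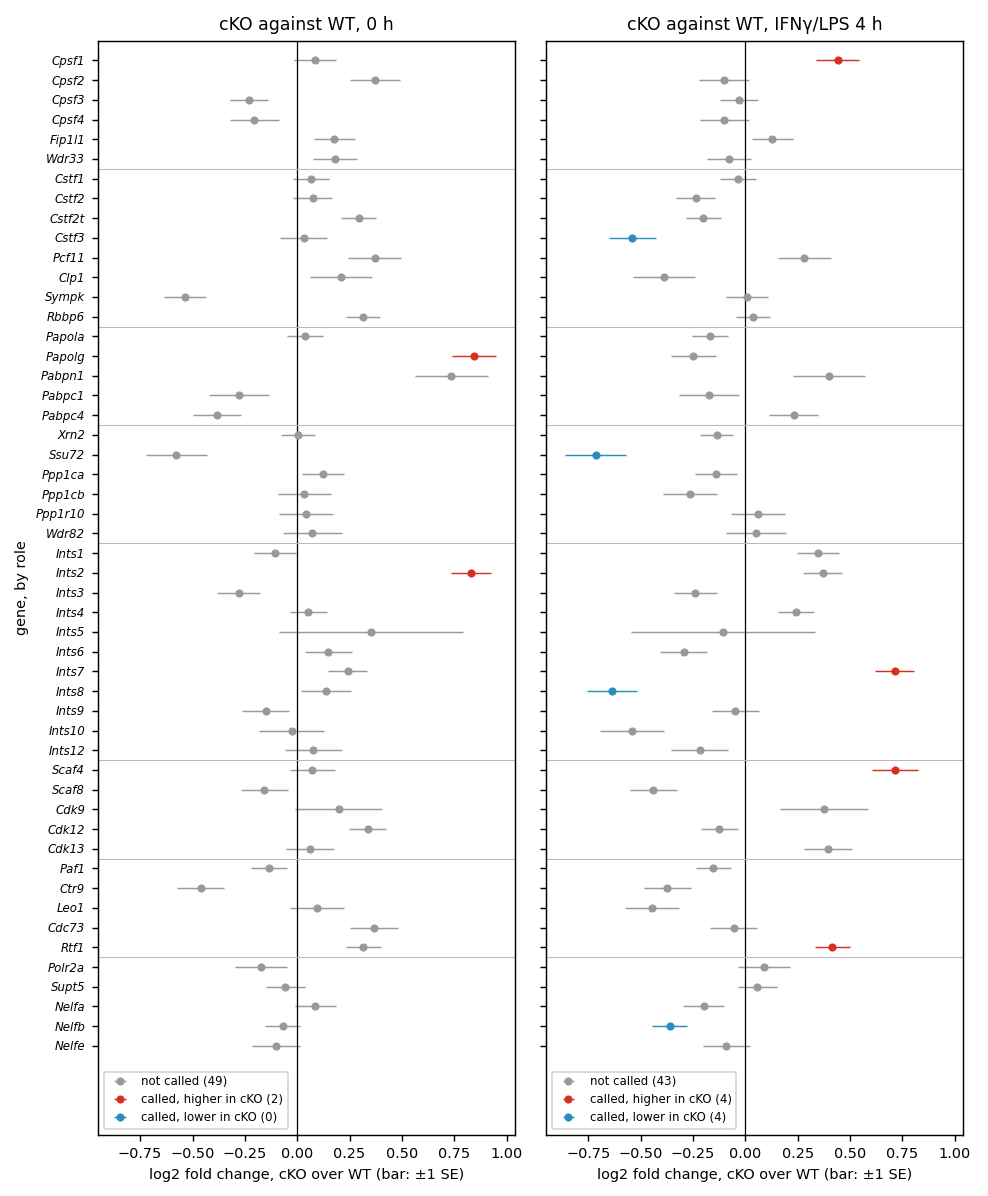
Log2 fold change of cKO over WT for each of the 51 members, by role from top to bottom, at 0 h (left) and IFNγ/LPS 4 h (right). Points are limma estimates with ±1 SE, coloured where the adjusted p was below 0.05. At 0 h 2 members were called higher, and at 4 h 4 were higher and 4 lower.

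After IFNγ/LPS for 4 h, 8 members differed between the genotypes. Cpsf1, Ints7, Scaf4 and Rtf1 were higher in cKO, and Cstf3, Ssu72, Ints8 and Nelfb were lower, so that Integrator held a subunit on each side. Of the 51 members, 4 higher and 4 lower compare with 7.57% higher and 8.89% lower among all genes tested. The median of the members was -0.10, against -0.01 for all genes, and 19 of 51 (37.3%) were above 0 against 45.2% of all genes. This lean turned with the scaling: 42 of 51 (82.4%) were above 0 against 67.4% of all genes as deposited, and 31 of 51 (60.8%) against 54.6% with equal total coverage. By a fold above 1.5 with unadjusted p under 0.05, 2 were higher and 2 lower, against 10.1% and 10.6% of all genes.

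Ints7, an Integrator subunit, had scaled coverage of 133 and 122 in WT against 214 and 204 in cKO at 4 h, a rise of 1.64-fold (log2 0.71 ± 0.09, adjusted p = 0.0132). Scaf4, which binds the polymerase tail and counters early termination, was at 304 and 269 in WT and at 446 and 493 in cKO (0.71 ± 0.11, adjusted p = 0.0184). For both genes each cKO sample was far above each WT sample, while at 0 h the genotypes were closer, with Ints7 at 204 and 191 in WT and 234 in both cKO samples, and Scaf4 at 348 and 330 in WT and 363 and 350 in cKO.

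Rtf1, a PAF-associated factor that promotes ubiquitination of histone H2B, was at 500 and 505 in WT against 646 and 693 in cKO at 4 h (0.41 ± 0.08, adjusted p = 0.0341). It was at 392 and 399 in WT against 493 and 491 in cKO at 0 h, where it did not pass (0.32, adjusted p = 0.114). Cpsf1, the large scaffold of CPSF, was at 502 and 536 in WT and 682 and 727 in cKO (0.44 ± 0.10, adjusted p = 0.0464). It was not called with equal total coverage (adjusted p = 0.0677), by quantile normalization (0.0685) or without the filter on coverage (0.0616). In all 4 genes the cKO samples lay above the WT samples.

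Ssu72 was lowest at 4 h, with 2064 and 1680 in WT and 1085 and 1186 in cKO, a fall of 0.71 ± 0.15 on the log2 scale (adjusted p = 0.0355). Its order was the same at 0 h, at 1639 and 1399 in WT and 1007 and 1022 in cKO. Exons of Ssu72 share 15.1% of their bases with an antisense gene, 1500002C15Rik, and the libraries did not mark strand, so reads of the pair cannot be told apart there. Ints8, an Integrator subunit that holds its phosphatase, was at 608 and 505 in WT and 362 and 349 in cKO (-0.64 ± 0.12, adjusted p = 0.0284). Without stimulation its samples lay close together, at 250 and 243 in WT and 262 and 280 in cKO. The end of Ints8 overlaps that of Ccne2 on the opposite strand over 8.15% of its exon bases.

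Cstf3, the CSTF subunit that ties the complex to CPSF, was at 299 and 259 in WT and 195 and 188 in cKO (-0.54 ± 0.11, adjusted p = 0.0371). Nelfb, a core subunit of NELF, was at 525 and 502 in WT and 409 and 390 in cKO (-0.36 ± 0.08, adjusted p = 0.0467). Again WT and cKO did not overlap in either gene, and at 0 h the means of the genotypes lay closer, with Cstf3 at 208 and 229 in WT and 219 and 227 in cKO and Nelfb at 521 and 511 in WT and 486 and 497 in cKO.

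**Figure D3:**
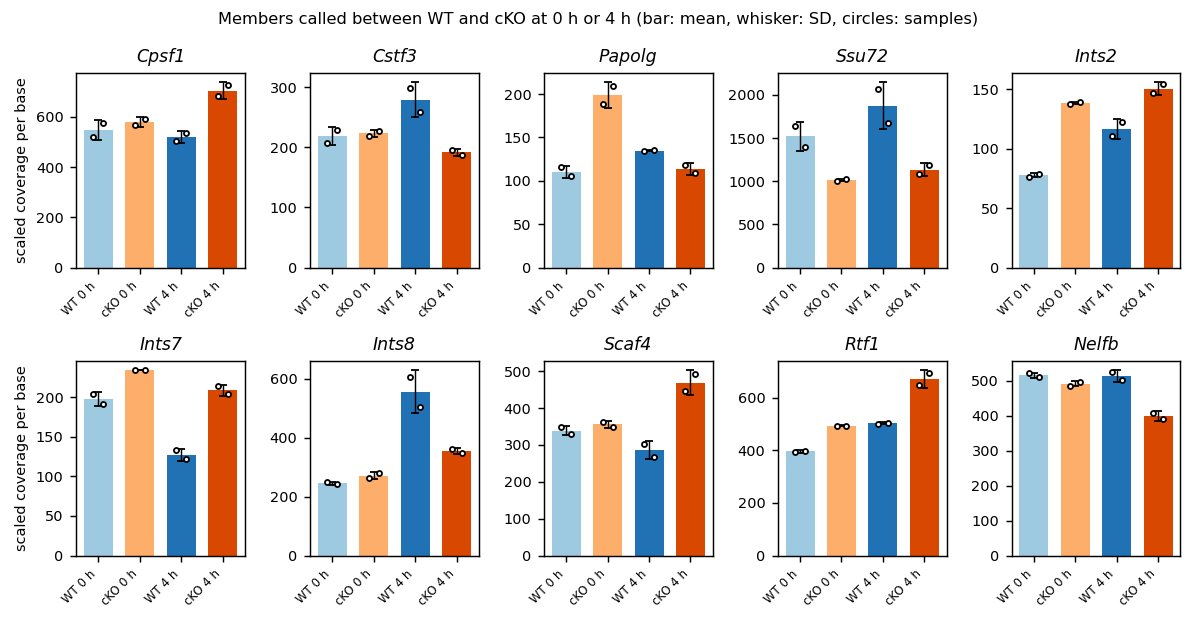
Scaled coverage per base of the 10 members called between WT and cKO at 0 h or 4 h. Bars are means of 2 samples, whiskers the SD and circles the samples, with axes starting at 0. Papolg and Ints2 were called at 0 h and the other 8 at 4 h.

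The split of these calls depended on how samples were scaled, since the deposited median itself was higher in cKO at 4 h. On the deposited scale 13 members were called higher and 0 lower by limma, where 19.6% and 3.38% of all genes were called and 23 members were higher and 1 lower at an unadjusted p under 0.05, against 30.6% and 6.37% of all genes. Of all genes 5.8% were called higher under all 5 scalings tried and 3.22% lower. Ints7, Scaf4 and Rtf1 were called higher under all 5, and no member was called lower under all 5. The 4 lower members kept a negative sign under each scaling, down to -0.0026 for Nelfb on the deposited scale, and they were not called there. Nelfb was also not called with equal total coverage, by quantile normalization or on genes of the members' level (adjusted p = 0.309, 0.0784 and 0.0665). Cstf3 was not called with equal total coverage (0.0729), nor Ssu72 by quantile normalization (0.0519). With the 4 samples at 4 h fitted alone, limma called 0 members in either direction, with 7 higher and 10 lower at an unadjusted p under 0.05 (12.9% and 16.2% of all genes), and the adjusted p of the 8 genes was 0.0664 to 0.115.

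**Figure D4:**
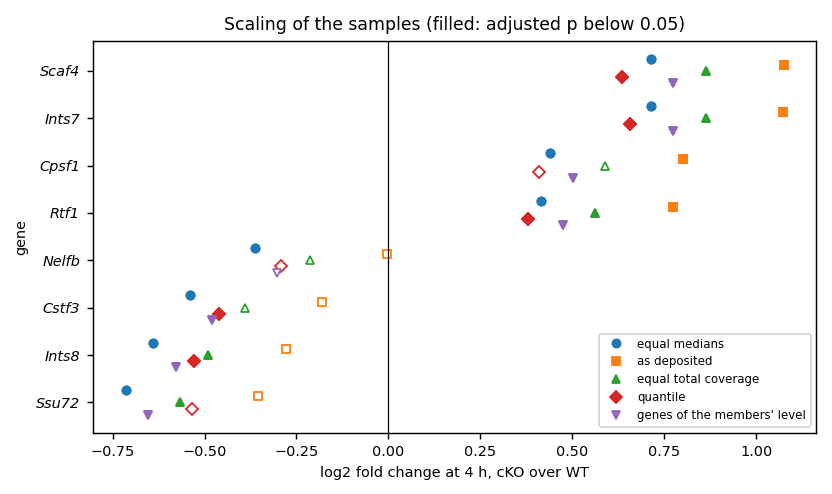
Log2 fold change of cKO over WT at 4 h (x axis) for the 8 members called there, under 5 ways to scale the samples (symbols). Filled symbols have an adjusted p below 0.05. Scaf4, Ints7 and Rtf1 are filled under every scaling, and the 4 lower genes move toward 0 on the deposited scale.

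Members that did not pass at 4 h with samples scaled to one median filled the range between these genes. In CPSF the lowest was Cpsf4 at -0.10 (adjusted p = 0.595). Pcf11 was highest of its group at 0.28 (adjusted p = 0.194). Papolg, called higher at 0 h, was at 134 and 135 in WT against 118 and 109 in cKO at 4 h, with cKO now below WT (-0.25, adjusted p = 0.176). As deposited its samples overlapped at 4 h and the change was 0.11 (adjusted p = 0.658). Pabpn1 was at 1536 and 1236 in WT and 1792 and 1846 in cKO (0.40, adjusted p = 0.181). Ints2 was at 110 and 122 in WT and 146 and 154 in cKO (0.37 ± 0.09, adjusted p = 0.0585). Pcf11, Pabpn1 and Ints2 were among the 13 members called higher as deposited (0.64, 0.76 and 0.73, adjusted p = 0.0187, 0.0329 and 0.0300). Of the termination genes Ppp1r10, the nuclear targeting subunit of PP1, was highest at 0.06 (adjusted p = 0.80). Scaf8, the close relative of Scaf4, was at 481 and 430 in WT and 347 and 324 in cKO (-0.44 ± 0.11, adjusted p = 0.0583), against the rise of Scaf4. Leo1 was lowest in the PAF complex (-0.44 ± 0.13, adjusted p = 0.0779), and Polr2a highest of its group (0.09, adjusted p = 0.681).

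An interaction term in the fit of all 8 samples asked whether the genotype effect itself changed with stimulation. Papolg was the one member called, with an effect of 0.84 at 0 h and -0.25 at 4 h and a difference of -1.09 ± 0.15 on the log2 scale (adjusted p = 0.0393). Members called were 0 higher and 1 lower, against 1.19% and 1.08% of all genes, and at an unadjusted p under 0.05 they were 5 higher and 11 lower, against 9.29% and 12.4%. Papolg did not pass on the deposited scale (-0.83, adjusted p = 0.116), with equal total coverage (-0.92, 0.111), scaled on genes of the members' level (-0.99, 0.0512), with the replicate block (-1.09, 0.22) or when any 1 of the 8 samples was left out (-1.17 to -1.02, adjusted p = 0.0594 to 0.121). Next in size were Ints8 (-0.78 ± 0.17, adjusted p = 0.0925), Scaf4 (0.64 ± 0.15, 0.108), Pabpc4 (0.61 ± 0.16, 0.127) and Clp1 (-0.60 ± 0.21, 0.193). With samples scaled to one median, the 8 members called between genotypes at 4 h and not at 0 h were therefore not shown to differ between the times. Scaf4 passed as deposited (0.91, adjusted p = 0.0445), and Scaf4 and Ints8 passed with an intensity trend in the fit (adjusted p = 0.0405 and 0.0326) and by the unadjusted rule of a fold above 1.5.

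The response to IFNγ/LPS was compared within each genotype. It crosses the 2 deposited tables, 1 for each time, in which no separate normalization was found. Relative to the median gene, 33 members rose and 7 fell in WT, against 36.9% and 23.5% of all genes, and 31 rose and 5 fell in cKO, against 35.1% and 23.1%. The median log2 change of the members was 0.57 in WT and 0.45 in cKO, against 0.14 and 0.12 for all genes. The samples of the 2 comparisons are different, but the estimate of spread is shared.

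These counts follow the scaling. As deposited, 5 members rose and 37 fell in WT and 6 rose and 37 fell in cKO, where 12.9% of all genes rose and 58.2% fell in WT, and 14.5% rose and 54.5% fell in cKO. Scaled on genes of the members' level, a choice made after seeing the data, 19 rose and 14 fell in WT (26.4% and 34.8% of all genes) and 18 rose and 12 fell in cKO (25.9% and 33.4%). The sign was the same under all 5 scalings for 22 members in WT and 20 in cKO, and the members described first below were also called under all 5. Of all genes 12.6% rose and 21.7% fell under all 5 in WT, and 13.8% and 21.7% in cKO.

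In WT, Cpsf2, Clp1, Ints12 and Cdk12 rose under every scaling. Cdk12, a kinase of the elongating polymerase, went from 225 and 233 at 0 h to 1038 and 947 at 4 h (2.11 ± 0.09, adjusted p = 4.94e-05). Clp1, an RNA kinase of cleavage factor IIm, went from 157 and 133 to 691 and 563 (2.11 ± 0.15, adjusted p = 2.17e-04). For Cpsf2 the values were 451 and 506 at 0 h and 2095 and 1776 at 4 h (2.01 ± 0.12, adjusted p = 1.28e-04), and for Ints12, an Integrator subunit with a PHD finger, 544 and 542 at 0 h and 2367 and 1874 at 4 h (1.96 ± 0.14, adjusted p = 2.13e-04). In each of these genes the samples at 4 h were all above those at 0 h. As deposited the changes were smaller, at 0.65 for Cdk12, 0.64 for Clp1, 0.55 for Cpsf2 and 0.49 for Ints12.

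The 7 that fell in WT under every scaling were Cpsf3, Ints3, Ints4, Ints7, Ints9, Ints10 and Nelfa, of which 5 are Integrator subunits. Nelfa, the NELF subunit that contacts the polymerase, fell the most, from 272 and 255 to 123 and 132 (-1.05 ± 0.10, adjusted p = 5.81e-04). Ints7 went from 204 and 191 to 133 and 122 (-0.64 ± 0.09, adjusted p = 0.00283), and Ints3 from 317 and 355 to 235 and 229 (-0.53 ± 0.10, adjusted p = 0.0080). Ints10, Ints9 and Ints4 changed by -0.52, -0.40 and -0.30 (adjusted p = 0.0325, 0.0280 and 0.0310). Cpsf3, the endonuclease of pre-mRNA cleavage, went from 703 and 708 to 563 and 607 (-0.27 ± 0.09, adjusted p = 0.0488), which is near the threshold. As deposited the falls were larger, such as -2.51 for Nelfa and -1.74 for Cpsf3. When 1 of the 8 samples was left out, Cpsf3 lost its call in 7 fits (-0.33 to -0.22), Ints4 in 7 (-0.36 to -0.24), Ints10 in 6 (-0.70 to -0.35) and Ints9 in 3 (-0.50 to -0.30), and Cpsf3, Ints4 and Ints9 also lost theirs with the replicate block (adjusted p = 0.128, 0.0897 and 0.0844). With samples scaled to one median, 36.9% of all genes were higher in WT and 23.5% lower. Of the Integrator genes 4 of 11 were higher and 5 lower. In the CSTF and cleavage factor IIm group 7 of 8 genes were higher and 0 lower, and all 5 of the PAF complex were higher. As deposited, 12.9% of all genes were higher and 58.2% lower. There 1 Integrator gene was higher and 8 lower, and 1 gene of the CSTF and cleavage factor IIm group was higher and 5 lower. In the PAF complex 0 genes were higher and 4 lower.

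In cKO, Cpsf2, Ints12 and Cdk12 again rose under every scaling, with Pabpc1, Pabpc4 and Ppp1r10. Pabpc1 went from 8432 and 7787 to 34559 and 37974 (2.16 ± 0.14, adjusted p = 2.02e-04), and in WT from 9060 and 10665 to 44452 and 37544 (2.06 ± 0.14, adjusted p = 2.12e-04). As deposited these changes were 0.96 in cKO and 0.59 in WT, and under quantile normalization Pabpc1 did not pass in WT (0.38, adjusted p = 0.0631). Its level was the highest of the members in every sample. Ppp1r10 rose by 1.76 ± 0.13 in cKO, from 359 and 391 to 1216 and 1323 (adjusted p = 2.85e-04), and by 1.74 ± 0.13 in WT. As deposited its values were 0.56 in cKO and 0.27 in WT, where it did not pass in WT (adjusted p = 0.0879). Pabpc4 was at 315 and 311 at 0 h and 842 and 957 at 4 h in cKO (1.52 ± 0.12, adjusted p = 3.23e-04), against 397 and 419 and then 816 and 717 in WT (0.91 ± 0.12). As deposited Pabpc4 rose by 0.32 in cKO but was called lower in WT (-0.56, adjusted p = 0.00491), and lower there also with equal total coverage (-0.51, 0.00573). Cdk12, Ints12 and Cpsf2 rose by 1.65, 1.66 and 1.54 in cKO, and by 0.45, 0.46 and 0.34 as deposited. Their interaction terms were -0.46, -0.30 and -0.47 and did not pass (adjusted p = 0.131, 0.433 and 0.199).

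Papolg, Ints3, Ints10, Nelfa and Nelfb fell in cKO under every scaling. Nelfa went from 288 and 272 to 116 and 107 (-1.33 ± 0.10, adjusted p = 2.88e-04) and Ints10 from 183 and 179 to 89.3 and 87.2 (-1.04 ± 0.15, adjusted p = 0.00314). Papolg went from 189 and 209 to 118 and 109, a fall of 0.81 ± 0.11 on the log2 scale (adjusted p = 0.00204), whereas in WT it was at 115 and 106 and then 134 and 135 (0.29, adjusted p = 0.0658). As deposited Nelfa, Ints10 and Papolg changed by -2.53, -2.24 and -2.01 in cKO. In WT Papolg was called lower as deposited (-1.18, adjusted p = 0.00141) and with equal total coverage (-1.13, 0.0019). By quantile normalization it was at 0.23 in WT (adjusted p = 0.144), so its direction there depended on the scaling. Ints3 changed by -0.49 (adjusted p = 0.0113) and Nelfb by -0.30 (adjusted p = 0.0294). Nelfb lost its call with the replicate block (adjusted p = 0.0962) and in 4 of the 8 fits without 1 sample (-0.34 to -0.26, adjusted p up to 0.12), and Ints3 in 2 of these fits (-0.56 to -0.42, up to 0.058). Nelfb in WT was at -0.01 relative to the median gene (adjusted p = 0.961) but was called lower under the other 4 scalings (-1.47 as deposited, -0.53 scaled on genes of the members' level), and its interaction term was -0.29 (adjusted p = 0.244).

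**Figure D5:**
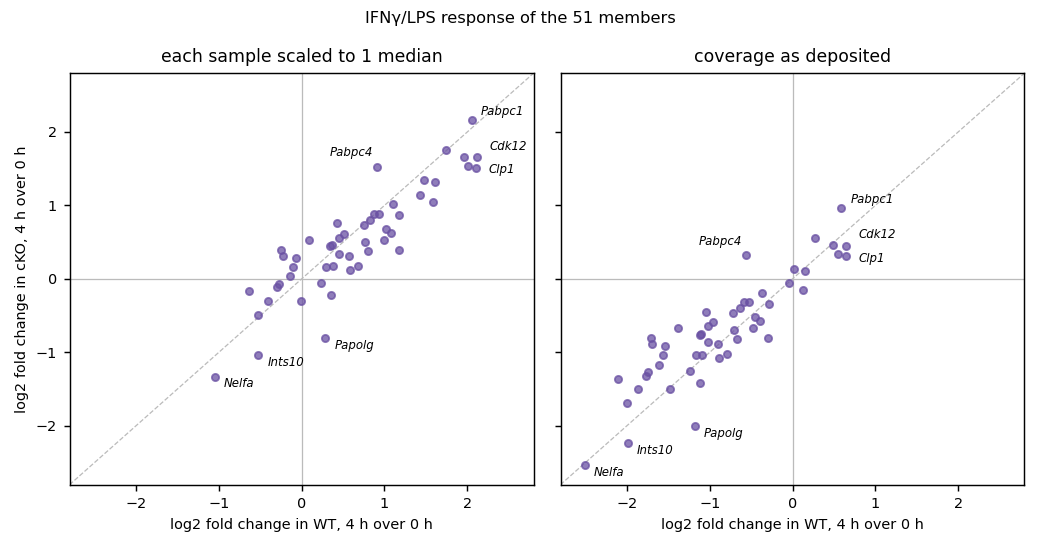
Log2 fold change of 4 h over 0 h in WT (x axis) and in cKO (y axis) for the 51 members, with samples scaled to 1 median (left) and as deposited (right). The dashed line marks equal change. The cloud moves along that line with the scaling, Papolg lies below it, and Nelfa and Ints10 are lowest on the cKO axis in both panels.

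Values of some further members are given next. Polr2a, at 1003 and 1237 in WT 0 h and 1058 and 1023 in WT 4 h, did not change relative to the median gene by more than its spread (-0.10 ± 0.12, adjusted p = 0.527), nor did Cdk9 (-0.14 ± 0.21, adjusted p = 0.586). Both were called lower in WT under the other 4 scalings, Polr2a from -1.57 as deposited to -0.62 on genes of the members' level, and Cdk9 from -1.61 to -0.67. Xrn2 rose in both genotypes by this scaling (1.48 and 1.34) but stood at 0.02 and 0.14 as deposited. Leo1 was highest of the PAF complex in both genotypes (1.59 and 1.05), and Rtf1 lowest in WT (0.35), but as deposited Leo1 was at 0.12 and -0.15 and Rtf1 was called lower in WT (-1.12, adjusted p = 6.80e-04). Sympk was lowest of its group in WT (-0.23, adjusted p = 0.108) and was called higher in cKO (0.32, adjusted p = 0.0432), but it was called lower in cKO as deposited (-0.88, adjusted p = 0.00225), with equal total coverage (-0.92, 0.00218) and by quantile normalization (-0.44, 0.0126). Ssu72 did not pass in either genotype by this scaling (0.30 and 0.16, adjusted p = 0.139 and 0.388), but it was called lower in both as deposited (-1.17 and -1.04), with equal total coverage and by quantile normalization. Ints5 had the widest spread, at 181 and 78.6 in the WT 4 h samples, and 14.3% of its exon bases lie in another gene on the same strand.

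Beyond the members, 58 of 59 other listed genes of the same pathways were tested. At 0 h 2 of them were higher and 2 lower in cKO, and at 4 h 2 were higher and 7 lower, against 2.69% and 2.11% of all genes at 0 h and 7.57% and 8.89% at 4 h. At 4 h there were 11 higher and 1 lower as deposited, where 19.6% and 3.38% of all genes were called. With the 4 samples at 4 h fitted alone, limma called 1 higher and 0 lower. At an unadjusted p under 0.05 that fit gave 3 higher and 13 lower (12.9% and 16.2% of all genes). At 0 h limma called 0 with the 4 samples fitted alone, with 6 higher and 5 lower at an unadjusted p under 0.05 (12.7% and 12.5% of all genes). In the fit of all 8 samples the same 2 were higher at both times. Ncbp2, a cap binding subunit, was higher by 1.16 at 0 h and 1.79 at 4 h (adjusted p = 0.0276 and 0.00625), and Tent4b, a non-canonical poly(A) polymerase, by 0.88 and 1.0 (adjusted p = 0.0119 and 0.00546). Lower at 0 h were Ints6l (-0.90, adjusted p = 0.0315) and Rprd1a (-0.71, 0.0347). At 4 h the lowest were Nabp1, a single-stranded DNA binding partner of Ints3 (-1.49, adjusted p = 0.00887), Rprd2 (-0.60, 0.0196) and Rpap2, a polymerase tail phosphatase (-0.57, 0.0300). In the interaction 0 were called by limma in either direction, with 4 higher and 13 lower at an unadjusted p under 0.05 (9.29% and 12.4% of all genes).

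Some coverage values cannot be tied to a single gene. A group of 7 members share at least 5% of their exon bases with another gene, Pabpn1 most (21.5% with Gm20521), and of the members called between genotypes only Ssu72 and Ints8 are among them. Pabpc1, Pabpc4, Ints5 and Scaf8 have 1, 8, 1 and 1 annotated genomic copies over at least 300 bases at 95% identity or more, none with a row of its own, so that reads from these copies could count toward them.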

How the data were processed

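RNA-seq of 8 samples was analysed, 4 groups of 2, each sample from BMDMs of 2 mice. The authors aligned reads with HISAT2 2.2.1 to GRCm38 and quantified RefSeq genes with StringTie 2.1.7 (versions from the submitters' processing notes), and deposited for each time 1 table of coverage, a signal not adjusted for depth. The tables also hold the authors' fold changes, p-values and classes, which were not used. Of the columns with sample values, 0 were left out.

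Each sample was scaled to the same median log2 value. The 16284 genes whose coverage averaged 0.5 or more were compared on log2(scaled coverage + 0.1) with limma 3.58.1 in R 4.3.3 over all 8 samples, and called at a Benjamini-Hochberg adjusted p under 0.05. Fold changes are on that scale, which understates changes of low values. Alternatives were other scalings, pseudocounts, filters, an intensity trend, a replicate block, the samples in the fit, leaving out each sample, and the study's rule of a fold above 1.5 with p under 0.05.

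The members, lists and tests were chosen with earlier results of these data known. Named genes were Nudt21, every member called between genotypes or in the interaction, the highest and lowest member of each role in each comparison, the 5 largest rises and falls of each stimulation, and up to 3 called genes per direction of the other pathway list. Other members (Papola, Cdk9, Xrn2, Ints4, Ints5, those highest by level and those called under all 5 scalings), and values of named members in further comparisons, were chosen after their values were seen. P-values set a difference against the spread within groups, estimated over the samples in the fit. That spread is between pools of 2 mice and not between single mice. The transcript for a 3′UTR was one with a RefSeq match in GENCODE M21, then a principal isoform, then the longest 3′UTR. Copies were sought with blastn 2.17.0.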

Additional observations from a re-analysis of the deposited data

Results flagged for a closer look

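For 1 gene the effect of the genotype differed between the times by a test of the difference itself. Papolg changed by 0.84 at 0 h and by -0.25 at 4 h on the log2 scale, a difference of -1.0929 (adjusted p = 0.0393, limma). On the values scaled to one median, the cKO samples were above the WT samples at 0 h and below them at 4 h. As deposited the samples overlapped at 4 h, at 68.8 and 81.6 in WT and 85.5 and 76.7 in cKO (0.11). The difference did not pass when any 1 of the 8 samples was left out, with the replicate block (adjusted p = 0.22), as deposited (0.116), with equal total coverage (0.111) or scaled on genes of the members' level (0.0512), and its cause was not tested. No group had the 4 or more samples needed to look for single samples that stand apart.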

How the results depend on the processing

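Values follow as members called, in the order higher then lower. Where no share of all genes called is given above for a setting, its counts cannot be set against other genes. On the deposited scale there were 13 and 0 for genotype at 4 h, 5 and 37 for stimulation in WT, 6 and 37 in cKO, and 1 and 0 for the interaction. Equal total coverage gave 0 higher at 0 h, 2 lower at 4 h, 6 and 37 in WT, 6 and 38 in cKO, and 0 lower in the interaction. Quantile normalization gave 3 lower at 0 h, 2 lower at 4 h, 14 and 19 in WT, and 14 and 20 in cKO. Scaling on genes of the members' level, added after seeing the data, gave 1 lower at 0 h, 19 and 14 in WT, 18 and 12 in cKO, and 0 lower in the interaction. With an intensity trend there were 6 and 3 at 0 h, 8 lower at 4 h, and 3 and 3 in the interaction. A mean coverage of at least 5 gave 1 lower at 0 h and 7 higher at 4 h. By the study's rule there were 2 and 2 at 4 h, 2 lower in WT, 3 lower in cKO, and 2 and 3 in the interaction. Fitting only the 4 samples compared gave 0 higher at 0 h, 0 and 0 at 4 h, and 3 lower in WT. The cause of these changes was not tested.

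WT and cKO share no replicate numbers, so no paired analysis was possible between genotypes. Numbers recur at both times, and deviations of equal numbers correlated at 0.021 in WT and 0.0232 in cKO. With 2 samples per group each genotype gives 1 such value, which cannot decide whether equal numbers share a pool. The replicate block gave 28 and 4 in stimulated WT, 25 and 4 in stimulated cKO, and 0 lower in the interaction.

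Leaving out 1 sample at a time gave 0 to 2 higher and 0 lower at 0 h, 0 to 3 higher and 0 to 3 lower at 4 h, 29 to 33 higher and 3 to 5 lower in WT, 24 to 31 higher and 3 to 6 lower in cKO, and 0 in either direction of the interaction. A group then left with 1 sample is assumed to vary like the others. At 0 h Papolg and Ints2 lost their call without either WT 0 h sample or any of the 4 cKO samples (adjusted p up to 0.105 and 0.0931). At 4 h Ints7 and Scaf4 lost theirs without either cKO 4 h sample alone (up to 0.0632 and 0.0919), and Cpsf1 and Nelfb without any 1 of the 8. Rtf1 lost its call in 6 of these fits, Ssu72 in 5, and Cstf3 and Ints8 in 7 each.

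The sign was the same under all 5 scalings for 44 of 51 members at 0 h, 28 at 4 h, 22 in WT, 20 in cKO and 41 in the interaction. Signs that turned in genes named by the rule are given as log2 fold changes. At 4 h Cpsf4 was 0.26 as deposited and 0.047 with equal total coverage, and Papolg 0.11 as deposited. For stimulation in WT, as deposited, with equal total coverage and scaled on the members' level, Papolg was -1.18, -1.13 and -0.24, Ssu72 -1.17, -1.12 and -0.23, and Rtf1 -1.12, -1.07 and -0.18. By quantile normalization Ssu72 was -1.0 and Rtf1 -0.25. Nelfe was -0.59 as deposited and -0.54 with equal total coverage. For stimulation in cKO, in the same order, Ssu72 was -1.04, -1.08 and -0.26, Cdc73 -0.82, -0.86 and -0.047, with -0.83 and -0.14 by quantile normalization. Leo1 was -0.15 and -0.19, and Nelfe -0.31 and -0.35, as deposited and with equal total coverage. Without 1 sample, Ppp1r10 ranged from -0.066 to 0.19 at 4 h and from -0.11 to 0.15 in the interaction, being lowest without WT 4 h replicate 2 in both, and it was -0.04 in the interaction without WT 0 h replicate 2, cKO 0 h replicate 3 or cKO 4 h replicate 4. The depth in reads is not known, and 2 samples per group limit every comparison.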
